A study of Rattus norvegicus with 15 samples.

Results

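The tenascins are large glycoproteins of the extracellular matrix, and the genes for 3 of them, Tnc (tenascin C), Tnn (tenascin N, also known as tenascin W) and Tnr (tenascin R), were measured in rat synovial tissue. They were taken by gene symbol, 3 of 23342 symbols in the count table, and all 3 were among the 16046 genes tested. They had been picked because Tnn was higher and Tnr lower in arthritic than in control tissue, so their values in that comparison are a description and carry no test. The 15 libraries, all labelled wild type, form 3 groups of 5. Control rats (CON) were left untreated. In the AIA group, adjuvant-induced arthritis followed an intradermal dose of Complete Freund's Adjuvant at the tail, and the Ab group had this arthritis and intraperitoneal anti-cANGPTL4 antibody, repeated each week. The labels give no strain, age or sex, no time after the injection, and no isotype antibody or vehicle for the AIA group, so the antibody and the act of treating cannot be told apart. Ab replicate 21_8 has 2 numbers in its title, and whether it pools 2 rats is not stated; it is counted once.

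Tenascins share a chain of EGF-like repeats, fibronectin type III domains and a globular end that resembles fibrinogen. Tenascin C is scarce in most resting adult tissues and appears at sites of wounding, inflammation and mechanical load, where it binds integrins and fibronectin and can signal through Toll-like receptor 4. Tenascin W is known from developing bone, the periosteum and the stroma of tumours, and tenascin R is known mainly from the nervous system, where oligodendrocytes and some neurons make it and where it binds the proteoglycans of the lectican family. The remaining family member, tenascin X, could not be analysed, since the symbols Tnxb and Tnxa were not among those counted.

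Tnr and Tnn lie close together on rat chromosome 13 in the RefSeq annotation of assembly GRCr8, with 1 protein-coding gene, Kiaa0040, between them, and Tnc is on chromosome 5. The windows from 250 bases before to 50 bases after the start site that RefSeq gives for each gene are shown because neighbouring genes of 1 family went in opposite directions here. They lie at chr5:82476082-82476381 on the minus strand for Tnc, chr13:74919740-74920039 on the minus strand for Tnn and chr13:74624776-74625075 on the plus strand for Tnr. They are written 5′ to 3′, and capitals mark the matches to the motifs named after them. RefSeq lists several transcripts for Tnr and for Tnc, the start used here for Tnr lies within the annotated span of the gene, and the counts do not say which start was used.
Tnc: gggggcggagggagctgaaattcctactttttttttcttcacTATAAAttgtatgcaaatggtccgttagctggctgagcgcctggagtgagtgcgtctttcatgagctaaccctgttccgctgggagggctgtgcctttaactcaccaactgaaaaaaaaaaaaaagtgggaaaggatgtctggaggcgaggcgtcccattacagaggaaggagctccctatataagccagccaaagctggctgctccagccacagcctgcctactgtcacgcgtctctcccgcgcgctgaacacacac
Tnn: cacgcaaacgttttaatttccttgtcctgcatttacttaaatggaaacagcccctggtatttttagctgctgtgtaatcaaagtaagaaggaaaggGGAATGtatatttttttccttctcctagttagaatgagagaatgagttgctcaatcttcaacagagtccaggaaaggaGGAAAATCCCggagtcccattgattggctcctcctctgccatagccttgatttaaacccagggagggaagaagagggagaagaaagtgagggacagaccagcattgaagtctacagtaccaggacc
Tnr: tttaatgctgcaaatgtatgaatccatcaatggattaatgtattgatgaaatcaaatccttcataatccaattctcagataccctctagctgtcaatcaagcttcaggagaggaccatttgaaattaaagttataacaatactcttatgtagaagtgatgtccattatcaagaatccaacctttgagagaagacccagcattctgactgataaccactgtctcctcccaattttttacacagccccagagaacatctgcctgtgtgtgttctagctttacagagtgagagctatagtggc

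Both strands were searched for 5 short motifs, chosen with results of these data known. The Tnc window holds TATAAA, the letters of a TATA box, which 14.2% of the 33469 rat windows of this length hold. The match is at bases 43 to 48, with its first base at -208 from the start site. Other forms of a TATA box were not searched. The Tnn window holds GGAATG, the letters bound by TEAD factors, which 14.2% of windows hold, and on the minus strand a form of the NF-kappaB site, which 1.53% of windows hold. These 2 matches, at bases 97 to 102 and 175 to 184, do not overlap. None of the 5 motifs, which also included TGANTCA for AP-1 (7.33% of windows) and TGTGGT for RUNX factors (17.3%), was found in the Tnr window. These matches describe letters and not binding.

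**Figure D1:**
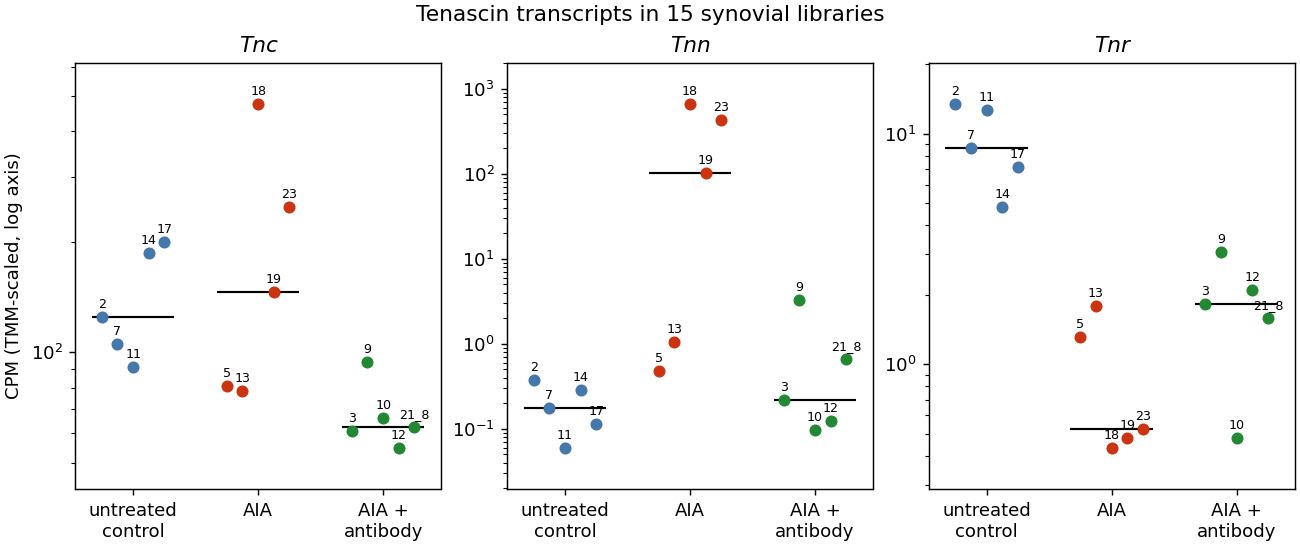
Level of Tnc, Tnn and Tnr in each of the 15 libraries, in CPM on a log axis that differs between panels. Points are libraries labelled by replicate number and lines are group medians; Tnn ran from 0.0594 to 658 CPM, and every Tnr value of the AIA and Ab groups lay below the lowest control value of 4.82 CPM.

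Levels within a gene are given as CPM, the count scaled to the size of its library with TMM factors. Total counts ran from 31172215 to 34084345 per library. Prg4, encoding the lubricin of the synovial lining, held 85510 or more counts in every library. CON replicate 2 and AIA replicate 19 carried skeletal muscle transcripts (summed level of the muscle list 8150 and 15000 CPM, against 22.3 to 65.1 CPM in the other 13 libraries). The calls of the tenascins, and some counts pooled over the lists of tenascin-related genes, are given without these libraries as well. The counts of each separate list or marker list and the calls of single list genes are not.

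Levels between genes were compared per length, as the authors' deposited FPKM. In control tissue Tnc was the most abundant of the 3 genes at 18.8 ± 6.74 FPKM (mean ± SD, n = 5), Tnr followed at 0.757 ± 0.287 FPKM, and Tnn was lowest at 0.0347 ± 0.0212 FPKM. The ranges of the 3 genes did not overlap among the control libraries. Under the antibody Tnc was again highest at 8.91 ± 2.16 FPKM. Tnr was at 0.146 ± 0.0773 FPKM and Tnn at 0.153 ± 0.241 FPKM, with medians of 0.151 and 0.0387 FPKM, and Tnr exceeded Tnn in 4 of 5 Ab libraries. The exception was replicate 9, with 0.579 FPKM of Tnn, which sets the Tnn mean. In AIA replicates 18 and 23 the order was different, with Tnn at 113 and 73.2 FPKM and thus 1.83 and 2.30 times the level of Tnc in the same library. In AIA replicate 19 Tnn stood at 0.929 times the level of Tnc, while in every other library it was at most 0.0457 times that level.

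Tnn was at the edge of detection in control synovium and very abundant in 3 of 5 arthritic libraries. The control libraries held 12, 6, 2, 9 and 4 counts in replicates 2, 7, 11, 14 and 17. The AIA libraries held 16 and 33 counts in replicates 5 and 13, and 21249, 3241 and 13201 counts in replicates 18, 19 and 23. All 5 AIA libraries were above all control libraries, but replicates 5 and 13 were only 2.37 and 5.27 times the control mean in CPM, whereas replicates 18, 19 and 23 were 3270, 512 and 2150 times that mean. Over all tested genes, 3.25% had groups that did not overlap in this direction, and since Tnn was picked on this comparison nothing is read from its place among them. The group mean was 4.82 ± 4.85 log2 CPM in AIA and -2.07 ± 0.74 in CON (SD, n = 5), and the AIA libraries fell far apart. The fitted log2 fold change was 10.2 ± 1.86 (SE), and the level of replicates 18, 19 and 23 sets it. Without both libraries with muscle transcripts it was 10.7.

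Of the 3 genes, Tnn also had the largest difference between the antibody and the AIA group. The Ab libraries held 7, 109, 3, 4 and 21 counts in replicates 3, 9, 10, 12 and 21_8. Antibody replicate 9 at 3.27 CPM lay above AIA replicates 5 and 13 at 0.478 and 1.06 CPM, so the groups overlapped, and the other 4 Ab libraries lay between 0.096 and 0.666 CPM. Tnn was called lower in Ab against AIA, with a log2 fold change of -8.07 ± 1.62 (edgeR adjusted p = 0.0161), in a comparison where 3.99% of all tested genes were called lower. This comparison shares the AIA libraries on which the gene was picked for being high. A lower value in Ab was therefore favoured in advance, and the p-values given here are no independent test. Tnn also passed the filter on low counts only through the AIA libraries, since it fell under it in the fit on Ab and CON alone. The two-sided exact permutation test of log2 CPM over the 10 libraries gave p = 0.056, where the smallest possible value is 0.0079. The edgeR call was lost without Ab replicate 10 (adjusted p = 0.0523) and when the fit used only the 10 libraries compared (adjusted p = 0.061). It was kept without both libraries with muscle transcripts (log2 fold change -8.26, edgeR adjusted p = 0.038). Ab against CON was not called (log2 fold change 2.13 ± 1.99, edgeR adjusted p = 0.562, exact permutation p = 0.35). Without Ab replicate 9, which holds 109 of the 144 counts of its group, that change was 0.46 on the log2 scale.

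Tnr was detected in every library and was highest in every control. The control libraries held 432, 294, 425, 153 and 253 counts in replicates 2, 7, 11, 14 and 17. The AIA libraries held 44, 56, 14, 15 and 16 counts in replicates 5, 13, 18, 19 and 23. The same 3 AIA libraries in which Tnn was abundant held the lowest Tnr counts of the group, and all 5 were below every control. In CPM the group means were 9.34 ± 3.64 in CON and 0.908 ± 0.614 in AIA (SD, n = 5), and the fitted log2 fold change was -3.35 ± 0.49 (SE). Groups that did not overlap in this direction were found for 3.17% of tested genes, again without a reading for a gene picked on this comparison.

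The antibody libraries, which the choice of the genes did not name, also held little Tnr. Replicates 3, 9, 10, 12 and 21_8 had 59, 102, 15, 68 and 50 counts. These correspond to 1.83, 3.06, 0.48, 2.09 and 1.59 CPM, and none reached the lowest control at 4.82 CPM. Tnr was called lower in Ab against CON with a log2 fold change of -2.36 ± 0.46 (edgeR adjusted p = 0.00654), lower in 5 of 5 Ab libraries. In that comparison 4.66% of all tested genes were called lower, and 5.27% had groups that did not overlap in this direction. The two-sided exact permutation test gave p = 0.0079, the smallest that 5 against 5 libraries can give. The call was kept in all 10 fits that left out 1 library of these groups, with adjusted p from 0.00804 to 0.0215. It was also kept without the libraries with muscle transcripts (adjusted p = 0.016). The control libraries of this test are those on which Tnr was picked for being high beside AIA. A lower value in Ab was therefore favoured in advance, and the size of the difference may be set in part by that choice. The p-values of this comparison, also those of the fits with libraries left out, are no independent test. Ab against AIA was not called (log2 fold change 0.99 ± 0.48, edgeR adjusted p = 0.223, exact permutation p = 0.1), and the ranges of those groups overlapped.

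Tnc was well expressed in all 15 libraries. The control libraries were at 125, 105, 90.9, 186 and 200 CPM in replicates 2, 7, 11, 14 and 17. The AIA libraries were at 80.8, 78.2, 474, 146 and 248 CPM in replicates 5, 13, 18, 19 and 23. Replicates 5 and 13 lay below every control, replicates 18 and 23 above every control, and replicate 19 among them. The fitted log2 fold change of AIA against CON was 0.54 ± 0.41 (SE), and without AIA replicate 18 it was -0.0236, so its direction rests on that library.

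Under the antibody Tnc was low in a narrow range. Replicates 3, 9, 10, 12 and 21_8 were at 61.1, 94.1, 66.1, 54.8 and 62.6 CPM. The mean of 6.06 ± 0.30 log2 CPM compares with 7.33 ± 1.11 in AIA and 7.07 ± 0.50 in CON (SD, n = 5). Only replicate 9 overlapped with either group, above AIA replicates 5 and 13 and above CON replicate 11. Tnc was called lower in Ab against AIA (log2 fold change -1.60 ± 0.42, edgeR adjusted p = 0.0382, exact permutation p = 0.024). That edgeR call was lost in 8 of 10 fits that left out 1 library, namely AIA replicate 18, 19 or 23 or any of the Ab libraries, with adjusted p up to 0.109 and a change of -1.04 without AIA replicate 18. Ab against CON was not called in the fit over all libraries (-1.06 ± 0.42, edgeR adjusted p = 0.133), was at adjusted p = 0.00975 in the fit on the 10 libraries of those groups, and had an exact permutation p of 0.016.

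Of 5 genes around Tnr and Tnn, 1 was called in AIA against CON, and it was lower, as were 3.45% of all tested genes (5.09% were called higher). Kiaa0040, which lies between them, was at a log2 fold change of -0.08 ± 0.12 in AIA against CON (edgeR adjusted p = 0.766) and 0.27 ± 0.12 in Ab against AIA (adjusted p = 0.184). Cop1, a ubiquitin ligase gene next to Tnr on the other side, was at 0.05 ± 0.08 (adjusted p = 0.813). Pappa2, a protease of insulin-like growth factor binding proteins that lies beyond Cop1, was lower in AIA at -2.15 ± 0.44 (edgeR adjusted p = 0.00744). Mrps14 and Cacybp on the side of Tnn were at 0.04 and -0.15, with adjusted p = 0.88 and 0.433. These neighbours were chosen by position after the values of Tnn and Tnr were known.

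**Figure D2:**
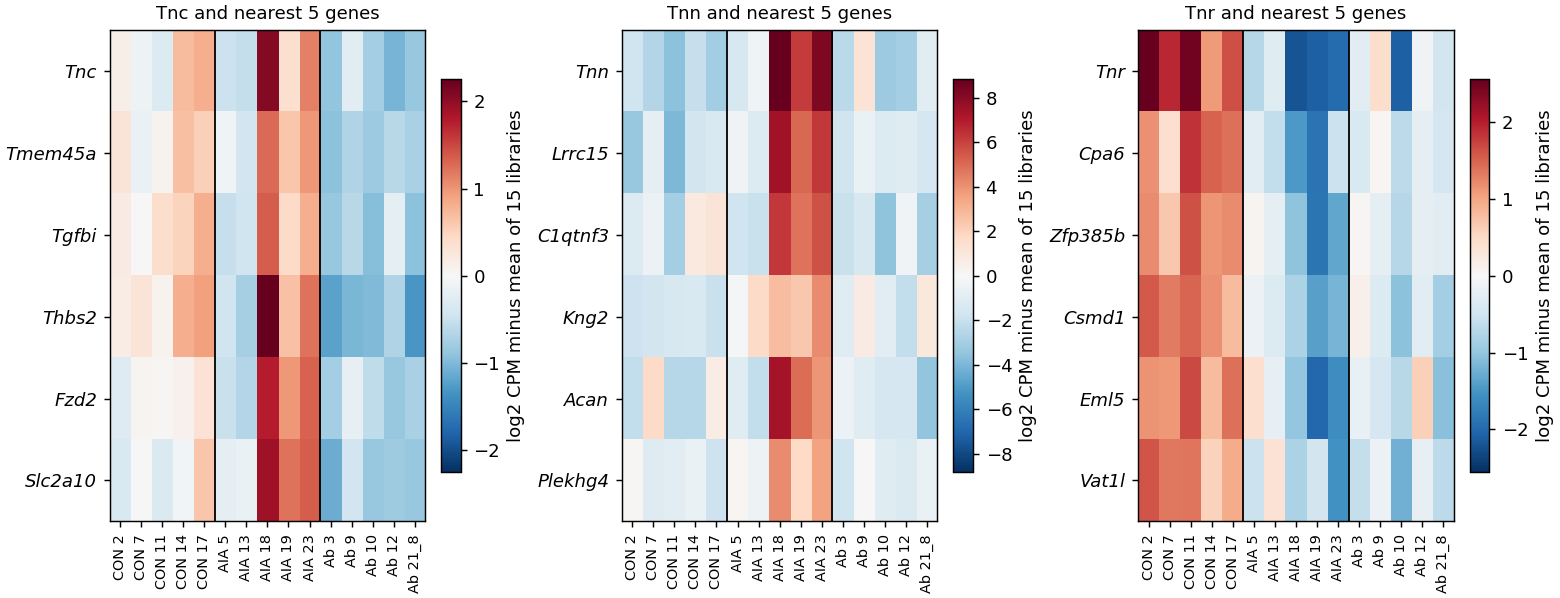
For each tenascin, its own row and those of the 5 genes nearest to it in pattern; columns are the 15 libraries and colour is log2 CPM minus the mean of the gene over the 15 libraries, on a scale that differs between panels. AIA replicates 18, 19 and 23 stand out in the panel of Tnn and the control libraries in that of Tnr; for Tnc itself, AIA replicates 18 and 23 lie above all controls and replicate 19 among them.

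The genes nearest in pattern were those with the smallest mean absolute gap in centred log2 CPM over the 15 libraries, a description over libraries that share the 3 groups. For Tnn the nearest were Lrrc15, C1qtnf3, Kng2, Acan and Plekhg4, with gaps of 1.28 to 2 log2 units. Lrrc15, a membrane protein known from activated fibroblasts, was at 0.687, 0.352, 163, 32.4 and 71.2 CPM in AIA replicates 5, 13, 18, 19 and 23 and at 0 to 0.472 CPM in control. Acan, the aggrecan gene of cartilage, was at 0.269, 0.0961, 116, 21.4 and 10.3 CPM in the same AIA libraries. Chosen for a pattern like that of Tnn, both were abundant in the 3 libraries in which Tnn was abundant. The other 9 genes of a cartilage marker list were not, and summed to 10.9, 7.17 and 7.44 CPM in AIA replicates 18, 19 and 23. These sums lay within the 4.15 to 27.8 CPM of the other libraries. For Tnc the nearest were Tmem45a, Tgfbi, Thbs2, Fzd2 and Slc2a10, with gaps of 0.243 to 0.279. Thbs2, encoding the matricellular protein thrombospondin 2, had group means of 6.77 ± 0.39 log2 CPM in CON, 6.91 ± 1.23 in AIA and 5.27 ± 0.24 in Ab (SD, n = 5). For Tnr the nearest were Cpa6, Zfp385b, Csmd1, Eml5 and Vat1l, with gaps of 0.627 to 0.684. Cpa6, encoding a carboxypeptidase of the matrix, ran from 2.48 to 6.72 CPM over the control libraries, from 0.444 to 1.49 CPM over AIA and from 1.12 to 1.89 CPM over Ab. Cpa6 was chosen for its likeness to Tnr, and its control libraries lay above all others, as those of Tnr did. Leaving out 1 library kept 2 to 5 of the nearest genes of Tnc, 3 to 4 of Tnn and 3 to 5 of Tnr.

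Markers of tissues known to express these genes differed between the libraries too, and in several lists 1 gene carried much of the summed level. In bulk tissue, fewer cells of a type and less RNA per cell cannot be told apart. The summed level of 12 sublining and activated fibroblast genes was 16400, 14900 and 13400 CPM in AIA replicates 18, 19 and 23, and 3060 to 7330 CPM in the other 12 libraries. Col3a1, a fibrillar collagen gene, made up 89.9%, 90% and 88.8% of the sum in those replicates. The other 11 genes summed to 1660, 1480 and 1510 CPM there and to 782 to 1390 CPM elsewhere. Of the 12 genes, 3 were called higher in AIA against CON (25%, beside 5.09% of all tested genes). In the same comparison 1 was lower (8.33%, beside 3.45%), Fap, a protease of activated fibroblasts, at -0.81 ± 0.17 (edgeR adjusted p = 0.00904). In Ab against AIA 0 were higher and 7 lower (58.3%, beside 3.99%). The summed level of the tendon and ligament list was 1380, 464 and 887 CPM in AIA replicates 18, 19 and 23. It was 175 to 515 CPM in the others, so replicate 19 lay within the range of the rest on the full sum. Without Comp, the most abundant gene of the list, the other 7 genes summed to 923, 387 and 530 CPM in those replicates. Elsewhere they summed to 122 to 276 CPM, so on that sum replicate 19 lay above the rest too.

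The bone and periosteum list summed to 14700, 10700 and 10600 CPM in those replicates against 1510 to 4640 CPM elsewhere, and 97.6% to 98.6% of it there was Col1a1, the chain of type I collagen that fibroblasts make too. Its other 12 genes summed to 213, 202 and 254 CPM, within the 138 to 349 CPM of the other libraries. Single members differed. Runx2, a transcription factor of bone-forming cells, was called higher in AIA at 0.98 ± 0.26 (edgeR adjusted p = 0.0272), with 210, 130 and 146 counts in AIA replicates 18, 19 and 23 and 42 to 125 in the other 12 libraries. Spp1 (osteopontin) had 753, 1461 and 520 counts in those replicates, 728 in Ab replicate 3 and 37 to 306 in the rest. Phex, an osteocyte gene, was called lower in AIA at -1.40 ± 0.31 (adjusted p = 0.0123). Bglap (osteocalcin) and Ibsp (bone sialoprotein) had 36, 18 and 8 counts and 16, 7 and 1 counts in those replicates, and were highest in Ab replicate 3 with 212 and 166 counts and in CON replicate 7 with 110 and 73 counts. The part of bone, periosteum, fibroblast or tendon tissue in the Tnn values was not tested.

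Nerve and lining markers were set beside Tnr in the same way. The Schwann cell and nerve list summed to 873 to 1040 CPM in CON, 507 to 972 in AIA and 991 to 1260 in Ab, but S100b, which other cells express too, made up 41.4% to 72.9% of the sums. The other 14 genes summed to 321 to 502 CPM in CON, to 397, 264, 297, 260 and 304 CPM in AIA replicates 5, 13, 18, 19 and 23, and to 333 to 402 CPM in Ab, where all 5 libraries lay within the control range. Of 13 genes tested, 3 were called lower in AIA against CON (23.1%, beside 3.45% of all tested genes). In Ab against CON 1 was lower (7.69%, beside 4.66%), Erbb3, a neuregulin receptor, at -0.59 ± 0.15 (edgeR adjusted p = 0.0291). Of 11 names in an oligodendrocyte and neuron list, 8 were among the symbols counted, and Olig1, Olig2 and Opalin were not, so their level is unknown. The oligodendrocyte genes Mog and Mobp were close to 0, with at most 22 counts of Mog and 1 of Mobp in any library. Of 4 genes of this list tested, 1 was called higher in AIA against CON and 1 in Ab against CON. Each is 25%, beside 5.09% and 3.38% of all tested genes, and 0 were called lower. The sum of 8 lining synovial fibroblast genes was 8590 to 15000 CPM in CON, 3640 to 7810 in AIA and 4660 to 7080 in Ab, 65.2% to 77.1% of it Prg4. All control libraries were above all others on this sum, as they were for Tnr, also without Prg4 (2630 to 3820 CPM against 929 to 2270). Htra4 and Clic5 were the next most abundant genes of the list. Of the 8 genes, 4 were called lower in AIA against CON and 4 in Ab against CON (50% each, beside 3.45% and 4.66% of all tested genes). Other members differed. Tspan15 had 485 to 656 counts in CON and 600 to 717 in Ab, and Hmox1 was highest in AIA replicate 23 with 4902 counts. The part of nerve or lining tissue in the Tnr values was not tested.

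**Figure D3:**
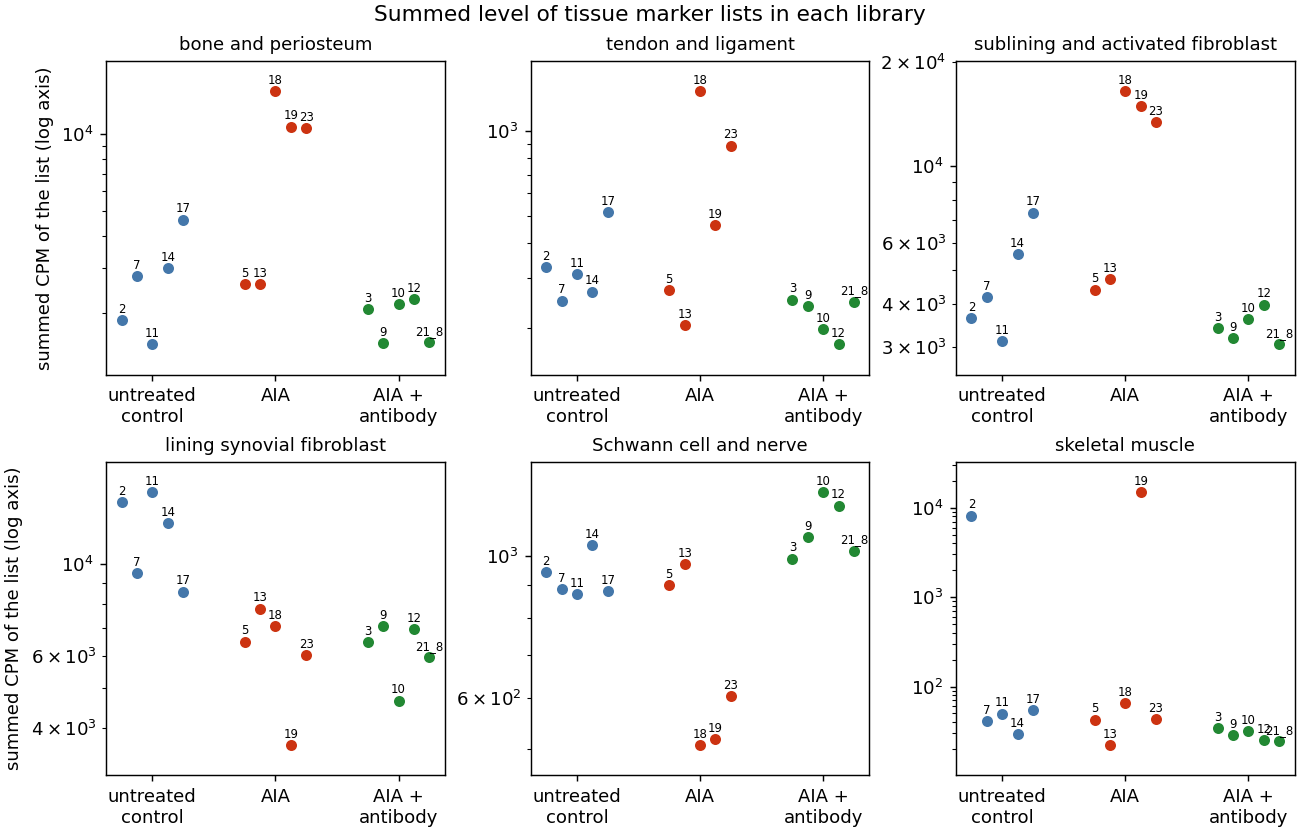
Summed CPM of 6 marker lists in each library, on log axes that differ between panels; points are libraries labelled by replicate number. AIA replicates 18, 19 and 23 are highest for bone and periosteum (nearly all Col1a1) and for sublining and activated fibroblasts (mostly Col3a1). On the full sum they are lowest for Schwann cells and nerve, with S100b at 41.4% to 49.8% of it. Without S100b, AIA replicate 13 (264 CPM) lies below replicates 18 and 23 (297 and 304 CPM). All 5 control libraries are highest for lining synovial fibroblasts (mostly Prg4).

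Genes that act with the tenascins were grouped in 4 lists with 60 different names, of which 52 were tested. Of these, 8 were called higher (15.4%) and 4 lower (7.69%) in AIA against CON, where 5.09% of all tested genes were called higher and 3.45% lower. In Ab against AIA 2 were higher (3.85%) and 13 lower (25%), beside 1.83% and 3.99% of all tested genes. In Ab against CON 2 were higher (3.85%) and 11 lower (21.2%), beside 3.38% and 4.66%. The median log2 fold changes of the 52 genes were 0.07, -0.32 and -0.53 in that order, and those of all tested genes were within 0.01 of 0. Ab against AIA shares its AIA libraries with the first comparison, and Ab against CON its control libraries. Without both libraries with muscle transcripts, the 8 became 1 and the 13 became 5. The counts also depended on single libraries. The 8 higher in AIA became 1 without AIA replicate 18, 2 without CON replicate 2, 11 or 14, and 5 without CON replicate 7 or AIA replicate 19 or 23. The 13 lower in Ab against AIA became 3 without Ab replicate 10, 5 without AIA replicate 18 or 23 or Ab replicate 21_8, 7 without AIA replicate 19 and 8 without Ab replicate 9. The 11 lower in Ab against CON became 7 without CON replicate 14 or Ab replicate 10 or 21_8.

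Of 13 receptors tested, 0 were higher and 1 lower in AIA against CON, with a median log2 fold change of -0.27. The 1 lower is 7.69% of the list, beside 3.45% of all tested genes, and in Ab against CON 2 were lower, 15.4% beside 4.66%. That was Egfr, the epidermal growth factor receptor that EGF-like repeats of tenascin C can bind, at -0.88 ± 0.18 (edgeR adjusted p = 0.00791), and it was also lower in Ab against CON at -0.79 ± 0.18 (adjusted p = 0.0158). Itgav, the integrin alpha v chain, was lower in Ab against CON at -0.63 ± 0.11 (adjusted p = 0.00244). Itga7, an integrin chain of muscle cells and a receptor of tenascin C, was higher in Ab than in AIA at 1.23 ± 0.20 (adjusted p = 0.0107) and than in CON at 0.69 ± 0.20. Tlr4 was lower in Ab against AIA at -0.61 ± 0.16 (adjusted p = 0.0409). The calls of Tlr4 and of Itga7 against CON were lost in 6 and 8 of 10 fits with 1 library left out, the other receptor calls in 0. Itga8 and Itga9, the chains known to bind tenascin W and tenascin C, are named for that role, and were at -0.78 ± 0.27 and -0.27 ± 0.13 in AIA against CON without passing (adjusted p = 0.0931 and 0.277).

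The binding partners in the matrix included the lecticans. Of 11 tested, 2 were higher (18.2%, beside 5.09% of all tested genes) and 0 lower in AIA against CON. In Ab against AIA 1 was higher (9.09%, beside 1.83%) and 3 lower (27.3%, beside 3.99%). Acan was higher in AIA at 5.39 ± 1.42 (edgeR adjusted p = 0.0278) and lower under the antibody at -7.06 ± 1.61 (adjusted p = 0.0239), with the 3 AIA libraries given above behind both values. Outside AIA it held 75 and 37 counts in CON replicates 7 and 17 and at most 14 in any other library. Acan thus passed the filter on low counts only through the AIA libraries in which it was high, and its p-values are no independent test. Vcan, encoding the lectican versican, was lower in Ab against AIA at -2.46 ± 0.51 (adjusted p = 0.0189), and so was Fbln1, encoding fibulin 1, at -1.24 ± 0.29. Fbln2, encoding fibulin 2, was higher in AIA at 0.69 ± 0.19. Hspg2, encoding perlecan, was higher in Ab against AIA at 0.37 ± 0.10 and in Ab against CON at 0.58 ± 0.10 (adjusted p = 0.00379). Fn1, encoding fibronectin, was lower in Ab against CON at -0.93 ± 0.21 (adjusted p = 0.0136). Periostin (Postn), named because it binds tenascin C, was at 1.13 ± 0.58 and -1.97 ± 0.60 in AIA against CON and Ab against AIA and did not pass (adjusted p = 0.29 and 0.0624). With 1 library left out, the calls of Acan were lost in 5 and 4 of 10 fits, that of Vcan in 1, of Fbln1 in 4, of Fbln2 in 7 and of Hspg2 against AIA in 8.

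Of 11 tested factors known to induce tenascin genes in cultured cells, 1 was higher and 1 lower in AIA against CON, each 9.09% of the list, beside 5.09% and 3.45% of all tested genes. Il1b (interleukin-1 beta) was higher at 2.11 ± 0.39 (edgeR adjusted p = 0.00372) and Tgfb2, a transforming growth factor beta, lower at -0.55 ± 0.11 (adjusted p = 0.00808). In Ab against CON 2 were lower (18.2%, beside 4.66%), Tgfb2 at -0.80 ± 0.11 (adjusted p = 0.000851) and Prrx1, a homeobox factor of mesenchymal cells, at -0.82 ± 0.15 (adjusted p = 0.00441). Prrx1 was also the 1 gene lower in Ab against AIA (9.09%, beside 3.99%), at -0.64 ± 0.15 (adjusted p = 0.0276), a call lost in 5 of 10 fits with 1 library left out. Tgfb1 was at 0.04 ± 0.12 in AIA against CON and did not pass (adjusted p = 0.9).

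Other matricellular genes, which like the tenascins encode matrix proteins with signalling rather than structural roles, had the highest share of calls of the 4 lists in Ab against AIA. Of 18 tested, 5 were higher (27.8%, beside 5.09% of all tested genes) and 2 lower (11.1%, beside 3.45%) in AIA against CON. In Ab against AIA 0 were higher and 8 lower (44.4%, beside 3.99%), and in Ab against CON 0 were higher and 6 lower (33.3%, beside 4.66%). Their median log2 fold changes were 0.57, -1.39 and -0.78. These counts depended on single libraries. With 1 library left out, the 5 higher in AIA against CON became 0 to 6. The 8 lower in Ab against AIA became 3 to 10, and the 6 lower in Ab against CON became 2 to 6. Thbs4 (thrombospondin 4), Ccn4 and Ccn5 (members of the CCN family induced by Wnt signals) and Smoc2 were higher in AIA at 2.01 ± 0.53, 2.39 ± 0.61, 2.11 ± 0.52 and 2.05 ± 0.59, and Thbs1 at 1.16 ± 0.30 (edgeR adjusted p = 0.0201 to 0.0431 for the 5). Ccn5 and Ccn4 were lower in Ab against AIA at -3.19 ± 0.55 and -3.53 ± 0.65 (adjusted p = 0.0107 and 0.0124), followed by Thbs4 at -2.82 ± 0.55, Smoc2 at -2.73 ± 0.61, Comp (cartilage oligomeric matrix protein) at -2.28 ± 0.51 and Thbs2 at -2.03 ± 0.44. In Ab against CON, Comp, Thbs2, Thbs3 (thrombospondin 3) and Tgfbi were lower at -1.67 ± 0.50, -1.53 ± 0.43, -1.48 ± 0.37 and -1.09 ± 0.30 (adjusted p = 0.024 to 0.0499), calls lost in 9, 10, 4 and 8 of 10 fits with 1 library left out. Ccn3 and Sparcl1 were lower than in control both in AIA, at -1.10 ± 0.18 and -0.88 ± 0.15, and in Ab, at -1.20 ± 0.18 and -0.72 ± 0.15. Thbs4 and Comp are also members of the tendon and ligament list above, and the part of tendon tissue in their values was not tested. The 4 calls of Ccn3 and Sparcl1, and those of Ccn4, Ccn5 and Thbs4 in Ab against AIA, were kept in all 10 fits with 1 library left out. The calls in AIA against CON of Smoc2, Thbs4, Thbs1, Ccn4 and Ccn5 were lost in 8, 7, 5, 4 and 2 of 10 such fits, and those of Smoc2, Comp and Thbs2 in Ab against AIA in 6, 4 and 3.

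**Figure D4:**
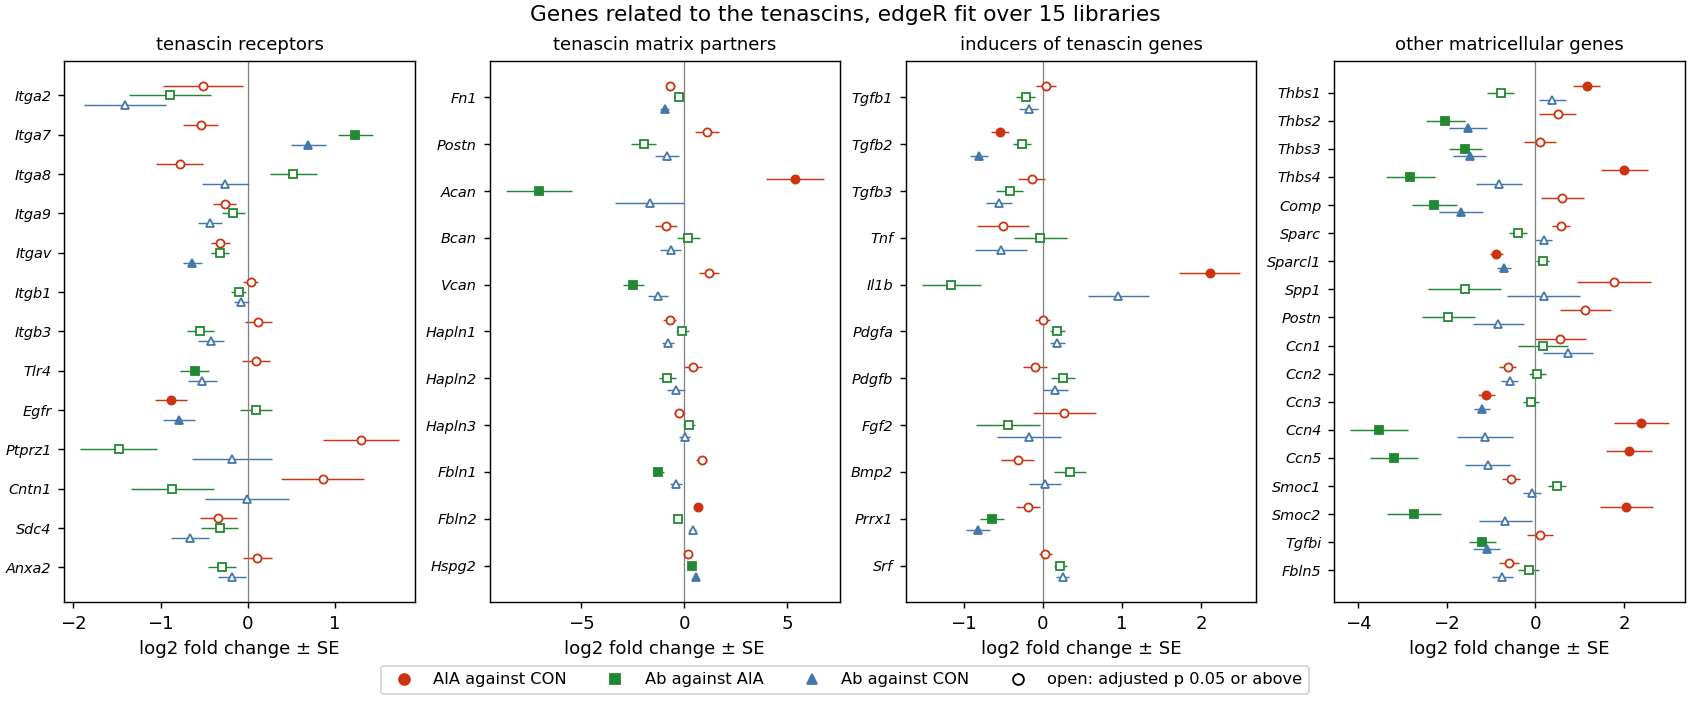
Log2 fold change ± SE (x axis) of each tested gene of the 4 lists in AIA against CON (circles), Ab against AIA (squares) and Ab against CON (triangles); filled symbols passed an edgeR adjusted p under 0.05, and the x axes differ between panels. Among the other matricellular genes, 8 of 18 are filled below 0 in Ab against AIA and 0 above.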

How the data were processed

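The authors deposited raw counts per gene symbol and FPKM values, 1 column per library. The deposited FPKM equals count over library total and a fixed gene length, within 0.1% for 100% of values above 0. GRCm38 and mm10, both mouse builds, are the only builds in the submitters' processing notes, although the samples are rat. Aligner, counter and strand setting: not given in the sources used here. Reads of an antisense gene can therefore not be separated from those of its partner. Of 23342 symbols, 20949 matched RefSeq symbols.

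The deposited counts went into edgeR 4.0.16 under R 4.3.3 (filterByExpr, which removed 7296 genes; TMM; 1 quasi-likelihood fit over 15 libraries with group as the only term; Benjamini-Hochberg over 16046 genes; call at adjusted p under 0.05). For log2 CPM the prior count was 2. The script was checked on simulated data. Alternatives were RLE factors, no filter, DESeq2 1.42.0, limma 3.58.1 on log2(FPKM + 0.1), fits on 2 groups, and libraries left out. Groups come from the labels. They do not say that libraries are separate animals, so p-values measure the spread between libraries.

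The genes, lists and tests were chosen with earlier results of these data known. Beyond the 3 tenascins, the text names the called genes of each list (up to 6 per comparison, by size of change), the 5 nearest genes in pattern and, chosen after their values were seen, the neighbours of Tnr and Tnn list members with a known tie to a tenascin and single marker genes. No set test was run.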

Additional observations from a re-analysis of the deposited data

How the results depend on the processing

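No paired analysis was possible because the 3 groups have no replicate number in common. In AIA against CON, leaving out 1 library gave log2 fold changes of -0.0236 to 0.767 for Tnc, where the value without AIA replicate 18 changed sign, 9.38 to 10.5 for Tnn and -3.74 to -3.18 for Tnr. The values of Tnn and Tnr moved to 5.48 and -2.28 on the log2(FPKM + 0.1) scale, whose pseudocount is above the control level of Tnn. In Ab against AIA, leaving out 1 library gave -1.83 to -1.04 for Tnc and -9.74 to -7.25 for Tnn. The Tnc call was also lost with limma on FPKM (-1.25), with only the 10 libraries compared (-1.60) and with both libraries with muscle transcripts left out (-1.70), and the Tnn call with limma (-4.93) and with the 10 libraries (-8.07); the cause was not tested. Tnc in Ab against CON was called with the 10 libraries (-1.06). Tnn in Ab against CON gave no value there, since it fell under the filter. DESeq2 kept the calls of Tnn and Tnc in Ab against AIA and of Tnr in Ab against CON.

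Of the genes in the 4 lists, the 8 called higher in AIA against CON became 2 with the 10 libraries, 1 without the libraries with muscle transcripts and 1 to 10 with 1 library left out, and the 4 lower became 7 with DESeq2. In Ab against AIA the 2 higher became 1 with no filter, the 10 libraries or the muscle libraries left out (1 to 3 with 1 left out), and the 13 lower became 3 with the 10 libraries and 5 without the muscle libraries (3 to 17 with 1 left out). In Ab against CON the 2 higher became 1 with no filter or without the muscle libraries (1 to 2), and the 11 lower became 18 with DESeq2 or the 10 libraries (7 to 12). Over all tested genes, the 817 higher and 553 lower in AIA against CON became 334 and 238 without the muscle libraries and 522 to 1147 and 369 to 796 with 1 left out, and the 817 became 532 with the 10 libraries. The 294 higher and 641 lower in Ab against AIA became 642 and 1229 with DESeq2, 35 and 77 with the 10 libraries, 46 and 174 without the muscle libraries and 48 to 754 and 139 to 1278 with 1 left out, and the 641 became 320 with limma. The 543 higher and 748 lower in Ab against CON became 277 and 480 without the muscle libraries and 288 to 510 and 407 to 802 with 1 left out, and the 543 became 906 with DESeq2. Signs that changed belonged to values that had not passed. In AIA against CON without AIA replicate 18 these were Tgfbi (-0.215, highest 0.287 with another library left out), Thbs2 (-0.0994, highest 0.756) and Thbs3 (-0.103, highest 0.347), with Thbs3 also at -0.0783 without AIA replicate 19 and -0.156 without the muscle libraries. In Ab against AIA they were Ccn3 (0.00545 without AIA replicate 23, lowest -0.201) and Egfr (-0.0536 without AIA replicate 19, highest 0.191, and -0.0538 without the muscle libraries). The nearest genes of Tnn kept 2 of 5 without a filter and those of Tnr kept 2 of 5 without the muscle libraries; these alternatives were chosen after seeing the data. With 2 to 12 counts per control library, counting error limits the control level of Tnn.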
